A study of Rattus norvegicus with 18 samples.

Results

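The genes described here are 38 named genes of glycolysis and the hypoxia response, followed in the nucleus pulposus (NP) of the rat at 2, 10 and 20 months of age. They cover glucose entry, the steps of glycolysis, lactate production and export, the pyruvate dehydrogenase kinases, the enzymes that set fructose-2,6-bisphosphate, the hypoxia-inducible factor (HIF) subunits with their oxygen sensors, and HIF target genes. Members were matched by gene name in the deposited gene table, which has 18923 rows. Of the 38 names 37 had a row, and 36 passed the filter on low values (an FPKM reaching 1 in 3 or more of the 9 libraries), as did 11708 genes in all. Pfkfb4 was listed but too low to test, and no row carried the name Gapdh.

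The study asked how the RNA methylome and gene expression of the disc core change as rats age. Poly(A) RNA of NP tissue was sequenced without immunoprecipitation, as input libraries, at 2 months (n = 3), 10 months (n = 3) and 20 months (n = 3), and the matched immunoprecipitated libraries are not analysed here. No treatment, allele, strain or sex is named in the labels used here, and age is the only stated difference between the groups. The labels do not say that the 3 replicates of an age are separate animals, so the p-values reflect how far these libraries differ from each other, which may be technical variation.

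Glycolysis splits glucose into pyruvate in the cytosol, and lactate dehydrogenase turns pyruvate into lactate when oxygen is short or demand is high. The NP has no blood vessels, and its cells are known to depend on glycolysis and to hold HIF-1 alpha protein even at normal oxygen. Prolyl hydroxylases of the Egln family use oxygen to mark HIF alpha subunits for removal by the Vhl protein, and HIF that escapes binds a short DNA motif near genes of glucose uptake, glycolysis and vessel growth.

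The promoters of 5 members are shown because the results turn on these genes, which carry glucose and lactate across the membrane, trap glucose or handle lactate and moved by different amounts or in opposite directions. Each sequence runs 5′ to 3′ from 250 bases before to 50 bases after the annotated gene start, and is from RefSeq on build GRCr8. Capitals mark the letters ACGTG and GCGTG, the core of the known HIF binding motif, on either strand, where they read CACGT and CACGC. Adjacent or overlapping matches run together.

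Ldha, chr1:106507842-106508141, plus strand: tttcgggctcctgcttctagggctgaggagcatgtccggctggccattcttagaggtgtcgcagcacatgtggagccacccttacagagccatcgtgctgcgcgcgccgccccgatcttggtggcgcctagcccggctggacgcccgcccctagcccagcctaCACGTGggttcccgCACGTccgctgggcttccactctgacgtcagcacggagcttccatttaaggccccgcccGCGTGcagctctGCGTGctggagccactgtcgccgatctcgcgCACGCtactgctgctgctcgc
Slc2a1, chr5:138002272-138002571, plus strand: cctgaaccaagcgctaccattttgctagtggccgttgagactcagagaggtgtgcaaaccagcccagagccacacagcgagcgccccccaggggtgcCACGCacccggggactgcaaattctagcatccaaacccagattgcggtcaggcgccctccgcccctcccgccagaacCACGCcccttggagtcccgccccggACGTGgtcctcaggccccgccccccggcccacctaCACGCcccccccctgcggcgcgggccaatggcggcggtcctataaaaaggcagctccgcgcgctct
Ldhb, chr4:177177359-177177658, minus strand: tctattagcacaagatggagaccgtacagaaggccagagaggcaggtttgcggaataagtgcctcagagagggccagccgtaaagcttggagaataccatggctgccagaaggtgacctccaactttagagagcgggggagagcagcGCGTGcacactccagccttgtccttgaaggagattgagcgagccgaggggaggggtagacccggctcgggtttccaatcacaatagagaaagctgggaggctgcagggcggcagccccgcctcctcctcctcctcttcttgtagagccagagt
Hk2, chr4:116841226-116841525, minus strand: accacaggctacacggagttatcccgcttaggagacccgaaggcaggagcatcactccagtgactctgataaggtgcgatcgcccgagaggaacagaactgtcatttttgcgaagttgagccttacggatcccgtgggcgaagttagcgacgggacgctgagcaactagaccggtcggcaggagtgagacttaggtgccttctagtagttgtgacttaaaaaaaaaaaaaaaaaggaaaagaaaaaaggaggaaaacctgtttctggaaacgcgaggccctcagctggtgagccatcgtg
Slc16a3, chr10:106712078-106712377, plus strand: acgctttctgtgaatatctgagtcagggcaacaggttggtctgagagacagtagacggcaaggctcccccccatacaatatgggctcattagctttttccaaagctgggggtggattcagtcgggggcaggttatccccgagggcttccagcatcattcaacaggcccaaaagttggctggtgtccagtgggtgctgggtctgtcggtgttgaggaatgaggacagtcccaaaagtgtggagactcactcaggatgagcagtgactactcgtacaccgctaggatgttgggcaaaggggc

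By this count the Ldha window held 6 matches, 3 of ACGTG and 3 of GCGTG, where CACGTG counts as 2 because it reads the same on both strands. The Slc2a1 window held 4 and the Ldhb window 1, and no match was found in the 300 bases shown for Hk2 and Slc16a3. RefSeq windows were at hand for 39 starts of 34 of the listed symbols, Gapdh included, and none was found for Slc2a3, Pgk1, Bnip3l and Ndrg1. ACGTG was present in 51.3% of these windows, against 19.3% of all 33469 windows of the table, and GCGTG in 41.0%, against 29.7%. The members' windows were also richer in G and C, with a median of 63.3%, against 51.7% over all windows. The letters CG, which both motifs contain, occurred a median of 20 times per member window, against 7 over all windows. A match is a description of the letters and not a binding site.

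Sequencing depth, as read from the ratio of coverage to FPKM (fragments per kilobase of transcript relative to the library's total), came to 3.53 to 5.04 gigabases of aligned bases per library, with the lowest and a wide range at 20 months. Pearson's r between replicates, taken across genes, was at least 0.984. The 20-month libraries differed from all others in an estimate of read length, 141 against 132 bases. This estimate was the commonest product of coverage and length among barely covered transcripts, and was not taken from labels. Mitochondrially encoded genes held 0.0868 to 0.111% of summed FPKM in the 20-month libraries, against 0.456 to 0.690% in the others. The 20-month libraries also had fewer of their bases on the listed transcripts, 80.1 to 80.9% against 85.6 to 86.1%. The share of ribosomal protein genes in summed FPKM was between 13.9 and 14.3% at 2 months, between 16.3 and 16.5% at 10 months and between 20.3 and 20.9% at 20 months. These differences and age cannot be told apart in any comparison with 20 months. Of 20 NP and notochordal markers 15 had a row, and 12 reached 1 FPKM. Their sums lay between 32410 and 33790 FPKM at 2 months, between 27720 and 28020 FPKM at 10 months and between 27960 and 29270 FPKM at 20 months, with Ca3 highest at 9329 to 10400 FPKM and Shh, Foxf1 and Pax1 near 0. Of the 12 tested NP markers 8 fell and the others were not called at 10 against 2 months, where 11.4% of all genes fell. Their median log2 change was −0.38, against 0.04 over all genes. Among them 8 fell and 1 rose at 20 against 2 months, where 49.6% of all genes fell and 18.6% rose. The median was −0.45, against −0.20 over all genes. Under median-of-ratios scaling 6 fell and 5 rose (31.5% and 30.9% of all genes), with a median of −0.23, against 0.00 over all genes. The notochord gene Tbxt averaged 2369, 2468 and 2184 FPKM at 2, 10 and 20 months, the keratin gene Krt19 5268, 3728 and 3336 FPKM, the galectin gene Lgals3 2687, 1786 and 1859 FPKM and the cartilage collagen gene Col2a1 304, 113 and 131 FPKM. These were picked from the list and do not stand for all of it. The 1 marker that rose at 20 against 2 months is not among them. At 20 against 10 months 3 markers rose and 5 fell, where 11.4% of all genes rose and 53.3% fell. Log2 changes ran from −0.88 to 0.87, with a median of −0.03, against −0.23 over all genes. Under median-of-ratios scaling 8 rose and 3 fell (26.5% and 26.0% of all genes), with a median of 0.23, against 0.00 over all genes. Skeletal muscle markers summed to between 41.3 and 44.6 FPKM at 2 months, between 28.2 and 29.4 at 10 months and 7.14, 6.77 and 346 in 20-month replicates 1, 2 and 3, with Acta1 at 92.5 FPKM in replicate 3. Markers of annulus and fibrous tissue also summed highest there, at 119 FPKM, against 26.7 and 34.8 FPKM in 20-month replicates 1 and 2. The highest of these was Dcn. Red blood cell markers, led by Hba-a1, summed to between 83.8 and 94.0 FPKM at 2 months, between 10.1 and 11.4 at 10 months and between 36.9 and 42.8 at 20 months. Macrophage and leukocyte markers summed to 23.1 to 27.6 FPKM in all 9 libraries. Among them Cd14 was highest at 2 months with a mean of 8.03 FPKM, and Csf1r, which averaged 7.04 FPKM at 2 months, was highest at 10 and 20 months with means of 12 and 11.3 FPKM and rose in both comparisons with 2 months. Endothelial markers, led by Vwf, summed to under 1 FPKM. The part of these cell types in the results was not tested, and in bulk tissue fewer cells of a type cannot be told from less RNA per cell.

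The members were abundant at every age. Their 37 rows held 2.74 ± 0.035% of the FPKM summed over all genes at 2 months. At 10 and 20 months this share was 2.41 ± 0.012% and 2.25 ± 0.0426% (SD, n = 3 each). At 2 months Slc2a1 ranked 24 among 18923 genes, Aldoa 42, Eno1 47 and Ldha 48. At the low end, Pfkfb4 stood between 0.520 and 1.23 FPKM in the 9 libraries. Between these, the plot of levels by library shows mean levels at 2 months from 1.69 FPKM for Pdk4 to 1641 FPKM for Slc2a1.

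**Figure D1:**
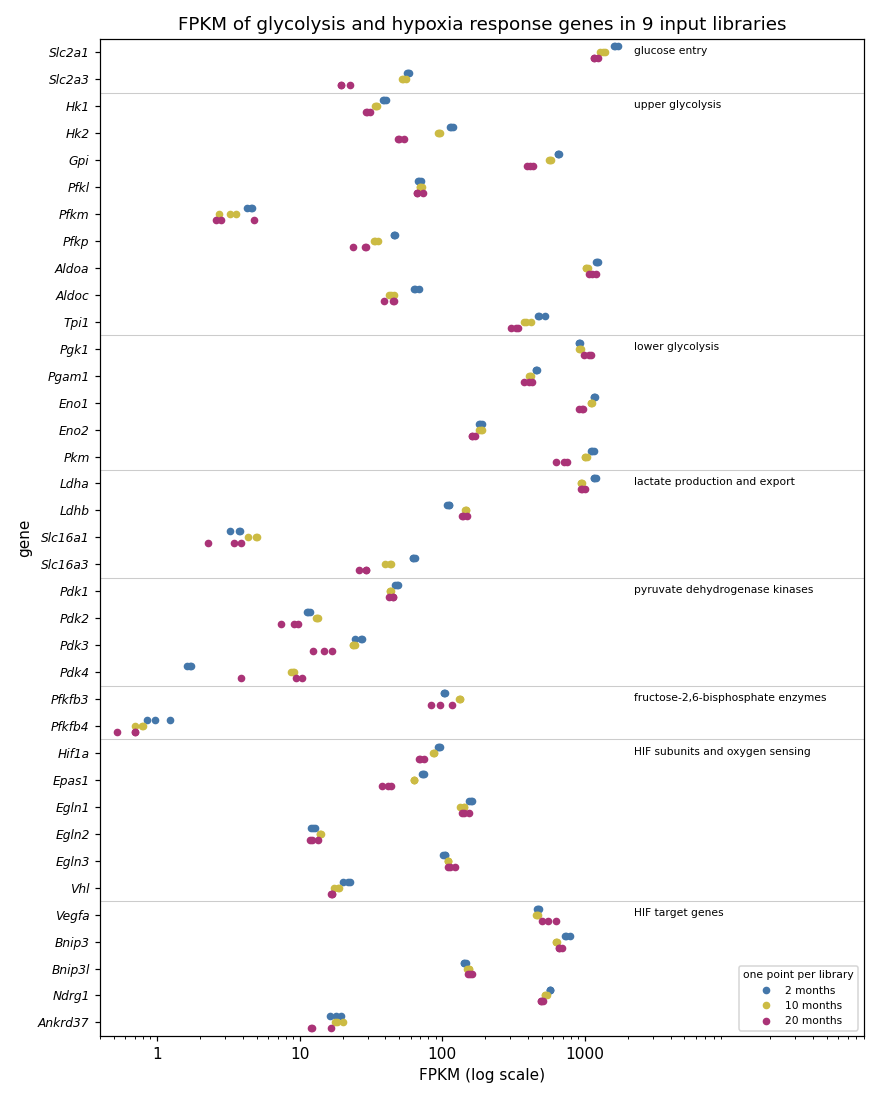
FPKM on a log scale (x axis) of the 37 members with a row, grouped by role from glucose entry to HIF target genes (y axis), with 1 point per library for the 3 libraries at 2, 10 and 20 months. Slc2a3, Hk2 and Slc16a3 at 20 months lie well left of their other points, and the 20-month points of Pdk4 spread from 3.85 to 10.4 FPKM.

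Changes with age were tested with limma on log2(FPKM + 1), and a gene is called where its p, adjusted by Benjamini-Hochberg over all 11708 genes tested, was under 0.05. Log2 changes are given with their SE and understate the change of low genes. At 10 against 2 months 18 of the 36 tested members fell and 3 rose, where 11.4% of all genes fell and 19.0% rose. The median log2 change of the members was −0.13, against 0.04 over all genes tested. At 20 against 2 months 25 members fell and 6 rose, where 49.6% of all genes fell and 18.6% rose, with a median of −0.29, against −0.20 over all genes. At 20 against 10 months 20 fell and 3 rose, where 53.3% of all genes fell and 11.4% rose, with a median of −0.17, against −0.23 over all genes. The 10-month result gained calls when only the 6 libraries of 2 and 10 months were fitted, where 22 members fell and 8 rose (16.2% and 24.9% of all genes), adding falls of Slc2a3, Pfkm, Eno1 and Pkm and rises of Slc16a1, Pdk2, Egln2, Egln3 and Bnip3l. Without 20-month replicate 2 or 3 the number that rose was 5. The F test across the 3 ages called 34 of the 36, where 75.4% of all genes were called, and left out Pfkl and Pfkm.

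The scale between libraries matters for the 20-month comparisons. Under median-of-ratios scaling the log2 change of the median gene shifted by 0.20 at 20 against 2 months, by 0.23 at 20 against 10 months and by −0.03 at 10 against 2 months. After it, 14 members fell and 10 rose at 20 against 2 months (31.5% and 30.9% of all genes), 8 fell and 15 rose at 20 against 10 months (26.0% and 26.5%), and 20 fell and 3 rose at 10 against 2 months (14.5% and 15.1%). The members' median log2 change was then −0.07 at 20 against 2 months and 0.09 at 20 against 10 months, against 0.00 over all genes in both. Calls that were the same as deposited, after this scaling and after quantile normalization numbered 17 lower and 3 higher at 10 against 2 months (11.1% and 13.6% of all genes). At 20 against 2 months there were 14 lower and 4 higher (31.1% and 18.3%), and at 20 against 10 months 8 lower (24.1%). Those 8 were Slc2a3, Hk2, Gpi, Pkm, Slc16a3, Pdk2, Pdk3 and Epas1. Rises at 20 against 10 months called under median-of-ratios scaling and not as deposited were those of Pfkl, Aldoc, Pgam1, Ldha, Ldhb, Pdk1, Egln1, Egln3, Vhl, Bnip3, Bnip3l and Ndrg1. After quantile normalization Pdk1, Egln1, Egln3 and Bnip3l were called higher in that comparison as well, while Ldha, Bnip3 and Ndrg1 were called lower.

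**Figure D2:**
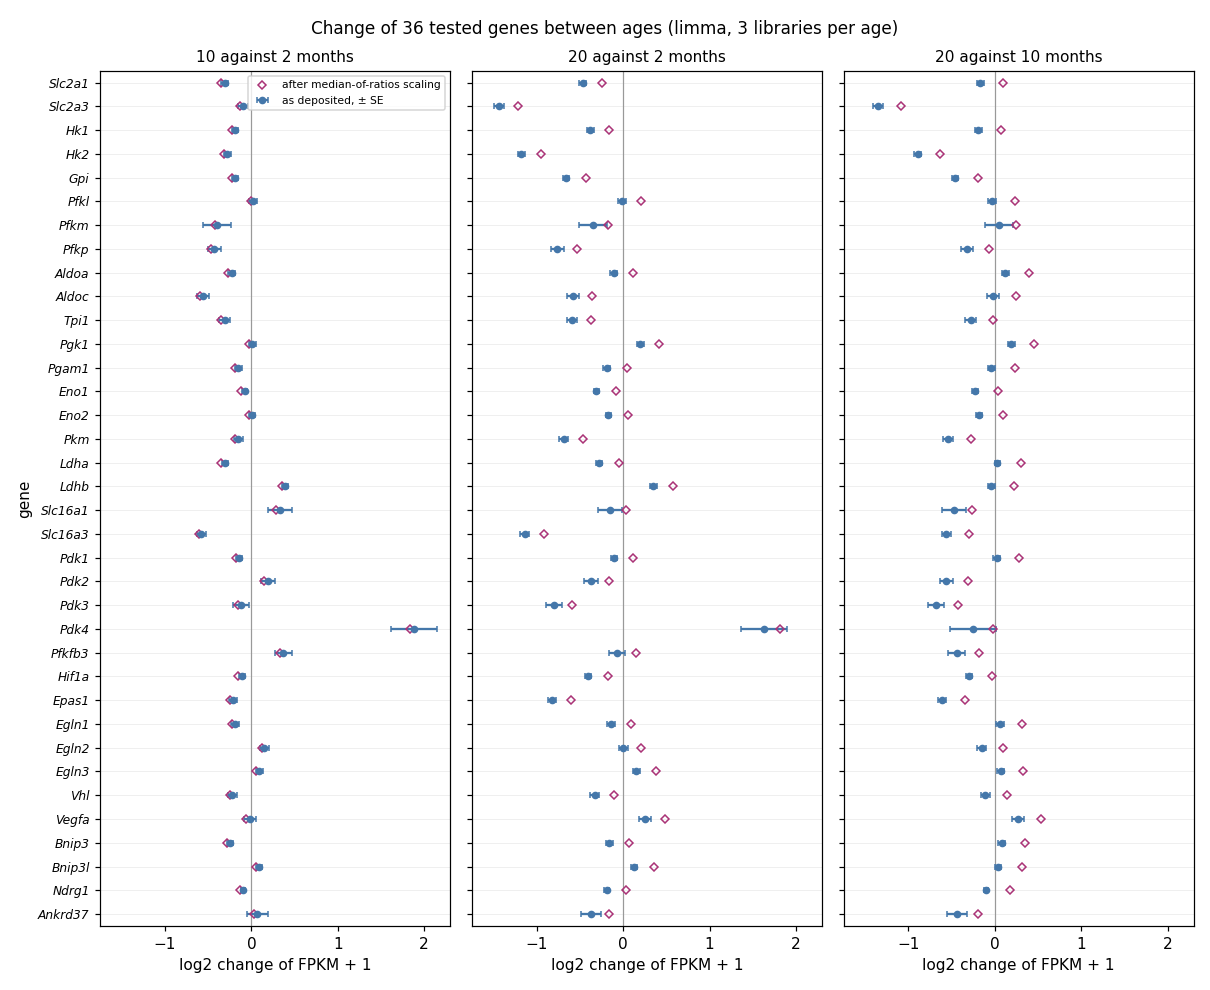
Log2 change of FPKM + 1 (x axis) of the 36 tested members (y axis) at 10 against 2, 20 against 2 and 20 against 10 months, with filled points ± SE for values as deposited and open diamonds for values under median-of-ratios scaling. The 2 kinds of value nearly coincide at 10 against 2 months and lie apart by about the shift of the median gene in both 20-month panels, where Slc2a3, Hk2 and Slc16a3 stay far to the left.

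Both glucose transporter genes fell at 20 against 2 months, where 49.6% of all genes fell. Slc2a1 also fell at 10 against 2 months, where 11.4% of all genes fell. Slc2a1 encodes GLUT1, the transporter of basal glucose uptake, and Slc2a3 encodes GLUT3, a high-affinity transporter best known from neurons. Slc2a1 (chr5:138154673-138182897, plus strand, in the coordinates of the deposited table, whose genome build was not given in the sources used here) had 1609, 1617 and 1699 FPKM at 2 months, 1375, 1331 and 1274 at 10 months and 1166, 1229 and 1152 at 20 months. The 3 ages did not overlap and stepped down. Its log2 change was −0.31 ± 0.04 at 10 against 2 months (limma adjusted p = 0.000688) and −0.47 ± 0.04 at 20 against 2 months (adjusted p = 9.15e-06, and −0.25 under median-of-ratios scaling). Between 10 and 20 months it fell as deposited (−0.17) but stood at 0.10 after that scaling, which was not called. After quantile normalization it was called lower between those ages (−0.37, adjusted p = 7.48e-05).

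Slc2a3 (chr4:155752447-155763500, minus strand) had 56.5, 57.3 and 58.6 FPKM at 2 months, 53.1, 55.3 and 52.5 at 10 months and 19.4, 19.6 and 22.6 at 20 months. The 2- and 10-month libraries lay close together and all 20-month libraries far below them. This was the largest fall among the members. Slc2a3 fell by 64.2% at 20 against 2 months (log2 change −1.44 ± 0.056, limma adjusted p = 1.22e-07) and fell by 61.7% at 20 against 10 months (−1.35 ± 0.056, adjusted p = 5.52e-07). After median-of-ratios scaling these changes were −1.22 and −1.09. At 10 against 2 months it was not called (−0.10 ± 0.056, adjusted p = 0.221), although it was called when only those 2 ages were fitted (adjusted p = 0.0329) or when 20-month replicate 3 was left out (adjusted p = 0.0431).

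Upper glycolysis, from hexokinase to triose phosphate isomerase, fell in 7 of 9 tested members at 10 against 2 months, where 11.4% of all genes fell, and in 7 of 9 at 20 against 2 months, where 49.6% of all genes fell. Under median-of-ratios scaling 6 fell at 20 against 2 months and Pfkl and Aldoa rose (31.5% and 30.9% of all genes). Hexokinases trap glucose in the cell by phosphorylation. Hk2 (chr4:113559427-113610243, minus strand), the inducible form, had 116, 114 and 119 FPKM at 2 months, 96.5, 95.6 and 93.7 at 10 months and 49.3, 49.5 and 54.1 at 20 months. The ages did not overlap, and the larger step came after 10 months. Hk2 fell by 18.0% at 10 against 2 months (log2 change −0.28 ± 0.04, limma adjusted p = 0.00101) and fell by 46.5% at 20 against 10 months (−0.89 ± 0.04, adjusted p = 8.09e-07, and −0.63 after scaling). Hk1, the housekeeping form, had 38.7, 38.9 and 40.5 FPKM at 2 months, 33.6, 34.5 and 34.7 at 10 months and 29.9, 31.1 and 29.0 at 20 months. It also stepped down without overlap, by less. Its log2 change at 20 against 2 months was −0.38 ± 0.037 (adjusted p = 2.11e-05, and −0.16 after scaling), while its fall at 20 against 10 months (−0.19) stood at 0.07 under median-of-ratios scaling and was not called after quantile normalization.

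Gpi, which turns glucose-6-phosphate into fructose-6-phosphate, had 651, 648 and 654 FPKM at 2 months, 564, 566 and 582 at 10 months and 434, 412 and 395 at 20 months. Each age lay wholly below the one before. Its log2 change was −0.19 ± 0.036 at 10 against 2 months (limma adjusted p = 0.00436), −0.66 ± 0.036 at 20 against 2 months (adjusted p = 7.83e-07) and −0.46 ± 0.036 at 20 against 10 months (adjusted p = 9.95e-06), the last being −0.20 after scaling. Triose phosphate isomerase, Tpi1, which interconverts both products of the aldolase step, had 467, 479 and 523 FPKM at 2 months, 377, 386 and 420 at 10 months and 304, 339 and 331 at 20 months. The ages did not overlap either, and Tpi1 fell at 10 against 2 months (−0.31 ± 0.06, adjusted p = 0.00486) and at 20 against 2 months (−0.59 ± 0.06, adjusted p = 2.66e-05, and −0.37 after scaling). The fall of −0.28 at 20 against 10 months came to −0.02 after scaling, which was not called. After quantile normalization it was −0.28 and was called (adjusted p = 0.00721). The Tpi1 and Eno2 genes are neighbours on chromosome 4, 34.3 kb apart in the deposited table.

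Of the 3 phosphofructokinase genes, which encode the committed step of glycolysis, Pfkp fell at both older ages. Pfkp, named for its platelet form, had 45.9, 45.8 and 46.9 FPKM at 2 months, 33.6, 35.2 and 33.3 at 10 months and 28.8, 29.0 and 23.5 at 20 months. It stepped down without overlap, with log2 changes of −0.43 ± 0.073 at 10 against 2 months (limma adjusted p = 0.00251) and −0.76 ± 0.073 at 20 against 2 months (adjusted p = 1.89e-05, and −0.53 after scaling). The further fall at 20 against 10 months (−0.32) was −0.07 after scaling and then not called. After quantile normalization it was −0.18 and was called (adjusted p = 0.0487). Pfkl, the liver form, stood at 66.4 to 73.6 FPKM in all 9 libraries with overlapping ages, and its log2 change at 20 against 2 months was −0.01 ± 0.045 as deposited (adjusted p = 0.863) and 0.21 under median-of-ratios scaling (adjusted p = 0.00412). Pfkm, the muscle form, was low, with 4.61, 4.27 and 4.53 FPKM at 2 months, 2.70, 3.57 and 3.24 at 10 months and 2.79, 2.61 and 4.77 at 20 months. The highest of the 9 values was in 20-month replicate 3, the library with the high muscle markers. Pfkm was not called as deposited (−0.35 ± 0.165 at 20 against 2 months, adjusted p = 0.0859), but fell without that library (−0.56, adjusted p = 0.000954, and −0.40 at 10 against 2 months, adjusted p = 0.00851).

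Aldolase cleaves fructose-1,6-bisphosphate. Aldoa, the main form of muscle and many other tissues, had 1208, 1200 and 1232 FPKM at 2 months, 1022, 1025 and 1058 at 10 months and 1129, 1189 and 1068 at 20 months. The 10-month libraries were lowest and the 20-month libraries lay between the other ages. Aldoa fell at 10 against 2 months (log2 change −0.23 ± 0.04, limma adjusted p = 0.00297). Its direction at 20 against 2 months turned with the scale, −0.11 as deposited (adjusted p = 0.0412) and 0.12 under median-of-ratios scaling (adjusted p = 0.0296), and the call as deposited was lost without 20-month replicate 1 or 3 and without any 2- or 10-month replicate (adjusted p 0.0524 to 0.111), as well as with no filter and in the fit of those ages alone (adjusted p = 0.0903 and 0.0829). After quantile normalization it was called lower in that comparison (−0.33, adjusted p = 1.9e-05). Against 10 months, the 20-month value was 0.12 as deposited and −0.03 after quantile normalization, and that call was lost without 10-month replicate 1 or 2 or 20-month replicate 2 (adjusted p 0.0625 to 0.0713), with no filter and in the fit of those ages alone (adjusted p = 0.0572 and 0.0543). Aldoc, known as the brain form, had 62.9, 64.9 and 68.4 FPKM at 2 months, 42.2, 43.7 and 46.1 at 10 months and 45.2, 46.0 and 39.1 at 20 months. Here the step came by 10 months, and the older ages overlapped. Aldoc fell by 32.7% at 10 against 2 months (−0.56 ± 0.065, adjusted p = 0.000364) and by 33.6% at 20 against 2 months (−0.58 ± 0.065, adjusted p = 4.77e-05, and −0.36 after scaling).

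In lower glycolysis, which yields ATP and pyruvate, 1 of 5 tested members fell at 10 against 2 months (11.4% of all genes), and 3 of 5 under median-of-ratios scaling (14.5%). At 20 against 2 months 4 fell and 1 rose (49.6% and 18.6% of all genes), and under median-of-ratios scaling 2 fell and 1 rose (31.5% and 30.9%). Pkm, pyruvate kinase, the last step, had 1122, 1101 and 1156 FPKM at 2 months, 997, 1007 and 1041 at 10 months and 751, 709 and 632 at 20 months. All 20-month libraries lay well below the others, and Pkm fell by 38% at 20 against 2 months (log2 change −0.69 ± 0.057, limma adjusted p = 7.42e-06, and −0.47 after scaling) and fell by 31.3% at 20 against 10 months (−0.54 ± 0.057, adjusted p = 4.84e-05, and −0.28 after scaling). At 10 against 2 months it was not called as deposited (−0.15 ± 0.057, adjusted p = 0.0777), but was under median-of-ratios scaling, after quantile normalization and in the fit of those 2 ages alone (adjusted p = 0.00447), as well as without 20-month replicate 1 or 3 (adjusted p = 0.0325 and 0.00961).

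Pgk1, phosphoglycerate kinase, the first ATP-making step, was the member of this stretch that was higher at 20 months. It had 913, 916 and 920 FPKM at 2 months, 908, 921 and 936 at 10 months and 1111, 1063 and 981 at 20 months. The younger ages overlapped and the 20-month libraries lay above them. The log2 change at 20 against 2 months was 0.20 ± 0.043 as deposited (limma adjusted p = 0.00287), 0.42 under median-of-ratios scaling (adjusted p = 1.94e-05) and −0.01 after quantile normalization, which was not called (adjusted p = 0.913). Pgam1, the mutase that follows, had 452, 464 and 458 FPKM at 2 months, 403, 413 and 420 at 10 months and 405, 424 and 377 at 20 months. The older ages overlapped and lay below 2 months. Pgam1 fell at 10 against 2 months (−0.15 ± 0.042, adjusted p = 0.025), a call lost without any 2-month replicate or 10-month replicate 1 or 2 (adjusted p 0.0544 to 0.0886), and its fall at 20 against 2 months (−0.19) became 0.04 under median-of-ratios scaling. After quantile normalization that fall was −0.25 and was called (adjusted p = 0.000237).

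Enolase makes phosphoenolpyruvate. Eno1, the widespread form, had 1168, 1165 and 1188 FPKM at 2 months, 1104, 1107 and 1117 at 10 months and 971, 963 and 911 at 20 months. Its libraries stepped down with no overlap, and it fell at 20 against 2 months (log2 change −0.31 ± 0.031, limma adjusted p = 2.36e-05, and −0.08 under median-of-ratios scaling, adjusted p = 0.0392). Eno1 missed the threshold at 10 against 2 months as deposited (−0.08, adjusted p = 0.0763) and passed it under median-of-ratios scaling (−0.12, adjusted p = 0.0163), after quantile normalization (−0.09, adjusted p = 0.0384), without 20-month replicate 1 or 3 (adjusted p = 0.0476 and 0.0191) and in the fit of those ages alone (adjusted p = 0.00976). Its fall at 20 against 10 months (−0.23) was 0.04 under median-of-ratios scaling and −0.50 after quantile normalization, which was called (adjusted p = 2.31e-06). Eno2, the neuronal form, had 181, 183 and 190 FPKM at 2 months, 189, 180 and 188 at 10 months and 162, 170 and 161 at 20 months. Only the 20-month libraries stood apart, below the rest. Eno2 was −0.17 ± 0.034 at 20 against 2 months as deposited (adjusted p = 0.00202), 0.06 under median-of-ratios scaling and −0.07 after quantile normalization, and neither scaled value was called.

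The listed glyceraldehyde-3-phosphate dehydrogenase gene had no row of its name. Both rows named LOC108351137 carry the description of that enzyme in the deposited table and are not counted as members. The row on chromosome 4 (chr4:157676595-157679962, minus strand) averaged 3352 ± 75.3, 2427 ± 55.4 and 1827 ± 163 FPKM at 2, 10 and 20 months (SD, n = 3 each). The row on chromosome 5 averaged 1500 ± 77.7, 941 ± 140 and 823 ± 73.9 FPKM at those ages. The chromosome 4 row fell at 10 against 2 months (log2 change −0.47 ± 0.059, limma adjusted p = 0.000563) and at 20 against 2 months (−0.88 ± 0.059, adjusted p = 2.19e-06). The chromosome 5 row fell in the same comparisons (−0.68 ± 0.106, adjusted p = 0.00162, and −0.87 ± 0.106, adjusted p = 8.3e-05). Reads of such near copies can be split between rows by the quantification, so neither level is certain.

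**Figure D3:**
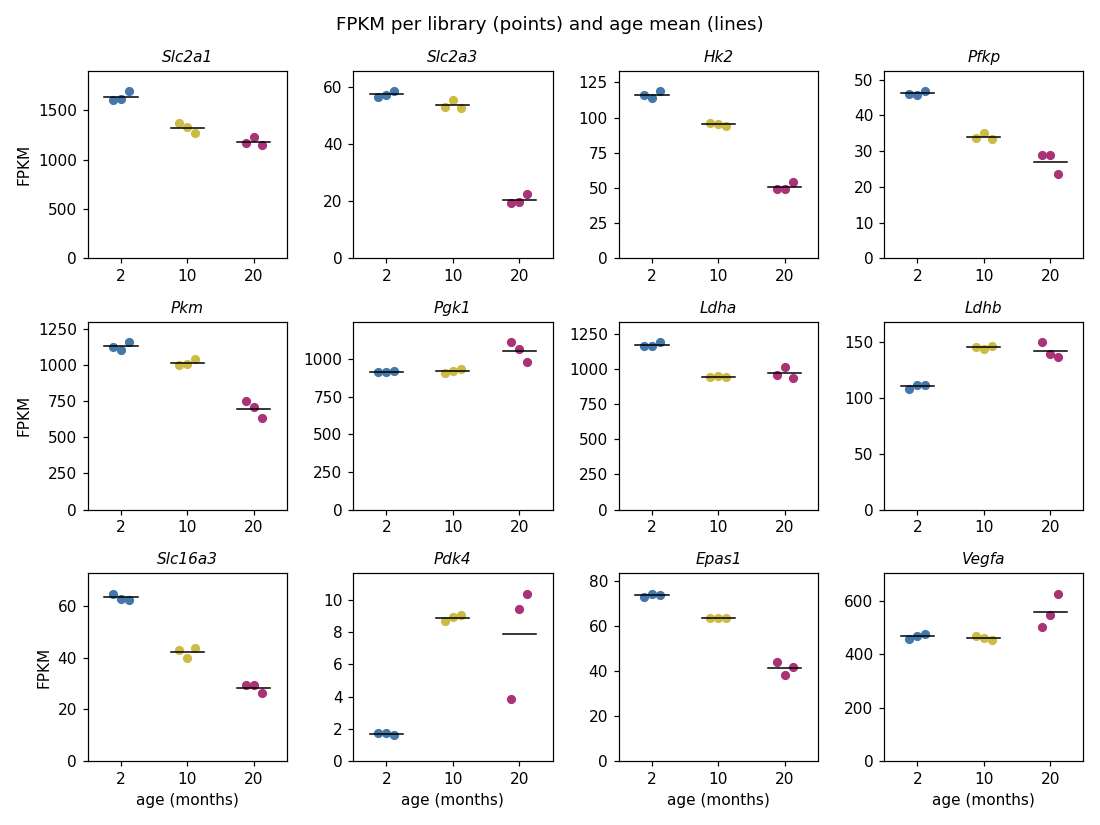
FPKM (y axis, from 0) against age in months (x axis) for 12 members, with 1 point per library, 3 per age, and a line at each age mean. Slc2a1, Pfkp and Slc16a3 step down at each age, Slc2a3, Hk2, Pkm and Epas1 drop mostly between 10 and 20 months, and Ldhb and Pdk4 are higher at 10 and 20 months than at 2 months.

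Of the genes of lactate production and export, Ldha and Slc16a3 fell and Ldhb rose at 10 and at 20 against 2 months as deposited. Of all genes 11.4% fell and 19.0% rose at 10 against 2 months, and 49.6% fell and 18.6% rose at 20 against 2 months. Ldha encodes the subunit of lactate dehydrogenase that favours making lactate, and Ldhb the subunit that favours its use. Ldha (chr1:102900286-102909707, plus strand) had 1164, 1163 and 1191 FPKM at 2 months, 942, 952 and 943 at 10 months and 959, 1011 and 936 at 20 months. All libraries of the older ages lay below all 2-month libraries and overlapped each other. Between 20 and 10 months Ldha was not called as deposited (0.03), was called higher under median-of-ratios scaling (0.30, limma adjusted p = 0.000153) and called lower after quantile normalization (−0.18, adjusted p = 0.00382). Ldha fell by 19.4% at 10 against 2 months (log2 change −0.31 ± 0.033, limma adjusted p = 0.000234) and by 17.4% at 20 against 2 months (−0.28 ± 0.033, adjusted p = 7.12e-05), although the 20-month change came to −0.05 under median-of-ratios scaling and was not called (adjusted p = 0.25). After quantile normalization the change at 20 against 2 months was −0.54 and was called (adjusted p = 3.57e-06).

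Ldhb (chr4:176701983-176720012, minus strand) had 108, 112 and 112 FPKM at 2 months, 146, 144 and 147 at 10 months and 150, 139 and 137 at 20 months. All libraries of the older ages lay above all 2-month libraries. Ldhb rose by 31.4% at 10 against 2 months (log2 change 0.39 ± 0.038, limma adjusted p = 0.000152) and by 27.9% at 20 against 2 months (0.35 ± 0.038, adjusted p = 4.03e-05), and was 0.35 and 0.58 in these comparisons under median-of-ratios scaling. At 20 against 10 months it was −0.04 as deposited and not called, was called lower without 20-month replicate 1 (−0.08, adjusted p = 0.0378) and was called higher under median-of-ratios scaling (0.22, adjusted p = 0.000575). Of the promoters shown, those of Ldha, Slc2a1, Hk2 and Slc16a3, with 6, 4, 0 and 0 motif matches, belong to genes that fell at 10 against 2 months, and that of Ldhb, with 1 match, to a gene that rose. The number of matches was not tested against the change with age.

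Monocarboxylate transporters carry lactate across the membrane. Slc16a3, which encodes MCT4, the exporter typical of glycolytic cells, had 64.8, 62.8 and 62.3 FPKM at 2 months, 42.9, 40.0 and 43.6 at 10 months and 29.2, 29.4 and 26.1 at 20 months. The 3 ages were far apart. Slc16a3 (chr10:110138586-110148358, plus strand) fell by 33.4% at 10 against 2 months (log2 change −0.58 ± 0.053, limma adjusted p = 0.00011) and by 55.3% at 20 against 2 months (−1.14 ± 0.053, adjusted p = 3.11e-07, and −0.92 after scaling). It also fell at 20 against 10 months (−0.56 ± 0.053, adjusted p = 2.64e-05, and −0.30 after scaling). Slc16a1, which encodes MCT1, was low at 2.29 to 5.01 FPKM, with its highest mean at 10 months (4.78 ± 0.351 FPKM, SD, n = 3). It was lower at 20 against 10 months (−0.47 ± 0.137, adjusted p = 0.0137), a call lost under median-of-ratios scaling and quantile normalization, and was higher at 10 against 2 months only without 20-month replicate 1 (0.33, adjusted p = 0.0147) and in the fit of those ages alone (adjusted p = 0.013).

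The pyruvate dehydrogenase kinases switch off pyruvate dehydrogenase and so keep pyruvate out of the mitochondria. Their 4 genes changed in different ways. Pdk4 (chr4:30546664-30556814, minus strand), known as the form induced by fasting and fat use, had 1.73, 1.71 and 1.62 FPKM at 2 months, 8.68, 8.96 and 9.08 at 10 months and 3.85, 9.46 and 10.4 at 20 months. It was lowest at 2 months and the 10-month libraries were tight, while 20-month replicate 1 stood below the other older libraries. Pdk4 averaged 5.28-fold its 2-month level at 10 months (log2 change 1.88 ± 0.267, limma adjusted p = 0.001) and 4.68-fold at 20 months (1.63 ± 0.267, adjusted p = 0.000525, and 1.82 after scaling). This was the largest rise among the members in both comparisons, though from a low level, with 7.71 reads per base in its least covered library.

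Pdk1, a known HIF target, had 47.8, 46.9 and 48.6 FPKM at 2 months, 42.7, 44.0 and 43.2 at 10 months and 44.9, 45.2 and 42.1 at 20 months. Both older ages lay slightly below 2 months. Its fall at 10 against 2 months (log2 change −0.14 ± 0.036, limma adjusted p = 0.0203) was lost without 2-month replicate 1 or 3 or 10-month replicate 1 or 3 (adjusted p 0.0579 to 0.0737). At 20 against 2 months it was −0.11 as deposited, 0.11 under median-of-ratios scaling and 0.04 after quantile normalization, and the call as deposited was lost without 2-month replicate 1 or 3 (adjusted p 0.0548 to 0.0691) and in the fit of those ages alone (adjusted p = 0.0505).

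Pdk2 had 11.5, 11.8 and 11.3 FPKM at 2 months, 13.1, 13.5 and 13.3 at 10 months and 9.67, 9.18 and 7.45 at 20 months. The 10-month libraries were highest and the 20-month libraries lowest. Pdk2 fell at 20 against 10 months (log2 change −0.56 ± 0.079, limma adjusted p = 0.000271, and −0.31 after scaling), and its difference at 10 against 2 months (0.19, adjusted p = 0.105) passed the threshold without 20-month replicate 3 (adjusted p = 0.00801) and in the fit of those ages alone (adjusted p = 0.00487). Its fall at 20 against 2 months (−0.37) was not called under median-of-ratios scaling (−0.16, adjusted p = 0.0872) or after quantile normalization (−0.18, adjusted p = 0.0782). Pdk3 had 27.3, 26.9 and 24.6 FPKM at 2 months, 24.5, 23.7 and 23.7 at 10 months and 16.8, 14.9 and 12.5 at 20 months. The 20-month libraries lay far below, and Pdk3 fell by 43.9% at 20 against 2 months (−0.80 ± 0.088, adjusted p = 4.44e-05, and −0.59 after scaling).

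Fructose-2,6-bisphosphate is the strongest activator of phosphofructokinase, and the Pfkfb enzymes make and remove it. Pfkfb3, the form with the highest kinase activity, had 103, 103 and 104 FPKM at 2 months, 134, 132 and 133 at 10 months and 96.1, 83.5 and 117 at 20 months. It was highest at 10 months, and the 20-month libraries spread around the 2-month level. Pfkfb3 rose by 29.1% at 10 against 2 months (log2 change 0.37 ± 0.097, limma adjusted p = 0.0208), a call lost without any of the 6 libraries of those ages (adjusted p 0.0538 to 0.0619), where the spread is shared with the 20-month libraries. It was lower at 20 against 10 months (−0.44 ± 0.097, adjusted p = 0.00342), a call lost under median-of-ratios scaling (−0.18, adjusted p = 0.158) but kept after quantile normalization (−0.36, adjusted p = 0.0142). At 20 against 2 months it was called only without 20-month replicate 3 (−0.20, adjusted p = 0.00936, against −0.07 with it). Pfkfb4 averaged 1.01 ± 0.196, 0.762 ± 0.0504 and 0.642 ± 0.106 FPKM at 2, 10 and 20 months (SD, n = 3 each) and was not tested.

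The genes of both HIF alpha subunits among the members fell at 20 against 2 months, where 49.6% of all genes fell. Hif3a, another HIF alpha gene that is not a member, averaged 6.06 ± 0.542 FPKM at 2 months and 2.47 ± 0.255 FPKM at 20 months (SD, n = 3 each). Its log2 change at 20 against 2 months was −1.02 ± 0.079 (limma adjusted p = 5.06e-06, and −0.85 after scaling). Hif1a encodes HIF-1 alpha, and Epas1 encodes HIF-2 alpha, which is best known from endothelium and kidney. Epas1 (chr6:10306405-10387265, plus strand) had 72.7, 74.3 and 73.5 FPKM at 2 months, 63.4, 63.5 and 63.3 at 10 months and 43.8, 38 and 41.7 at 20 months. Replicates were tight and the ages far apart. Epas1 fell by 13.7% at 10 against 2 months (log2 change −0.21 ± 0.047, limma adjusted p = 0.00995) and by 44.0% at 20 against 2 months (−0.82 ± 0.047, adjusted p = 9.71e-07, and −0.60 after scaling). Hif1a (chr6:96810907-96856052, plus strand) had 95.8, 94.6 and 92.9 FPKM at 2 months, 86.6, 87.8 and 87.5 at 10 months and 69.4, 74.9 and 68.7 at 20 months. It too stepped down without overlap, by 24.8% at 20 against 2 months (−0.41 ± 0.037, adjusted p = 1.33e-05, and −0.18 after scaling, adjusted p = 0.00321). At 10 against 2 months the call (−0.11, adjusted p = 0.0479) was lost without any of the 6 libraries of those ages (adjusted p 0.0789 to 0.143), with no filter (adjusted p = 0.057) and after quantile normalization (adjusted p = 0.0958).

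Among the oxygen sensors, Egln1 encodes the main prolyl hydroxylase for HIF-1 alpha in most tissues and Egln3 one that is itself a HIF target. Egln1 had 163, 160 and 155 FPKM at 2 months, 134, 142 and 142 at 10 months and 143, 155 and 137 at 20 months. It was highest at 2 months, and the older ages overlapped. Egln1 fell at 10 against 2 months (log2 change −0.19 ± 0.047, limma adjusted p = 0.0144), a call lost without 2-month replicate 1 or 10-month replicate 1 (adjusted p 0.0551 to 0.0586). Its direction at 20 against 2 months turned with the scale, −0.14 as deposited and 0.09 under median-of-ratios scaling, and the call was lost without 2-month replicate 1 or 2 or 20-month replicate 1 or 3 (adjusted p 0.0618 to 0.0891), after quantile normalization (−0.05, adjusted p = 0.353) and in the fit of those ages alone (adjusted p = 0.0521).

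Egln3 had 101, 104 and 104 FPKM at 2 months, 109, 109 and 110 at 10 months and 109, 122 and 113 at 20 months. All libraries of the older ages lay above all 2-month libraries. Egln3 rose by 11.5% at 20 against 2 months (log2 change 0.15 ± 0.041, limma adjusted p = 0.00853, and 0.38 under median-of-ratios scaling). It passed the threshold at 10 against 2 months only without 20-month replicate 2 (0.09, adjusted p = 0.0423) and in the fit of those ages alone (adjusted p = 0.0139), and was not called at 20 against 10 months as deposited. In that comparison it was called higher under median-of-ratios scaling (0.33, adjusted p = 0.000394), without 20-month replicate 1 (0.10, adjusted p = 0.0326) and after quantile normalization (0.15, adjusted p = 0.0167).

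Egln2 had 12.1, 12.4 and 12.9 FPKM at 2 months, 14.0, 14.2 and 13.8 at 10 months and 12.2, 11.8 and 13.4 at 20 months. The 10-month libraries were highest, and the other ages overlapped. Egln2 was lower at 20 against 10 months as deposited (log2 change −0.15 ± 0.051, limma adjusted p = 0.0252), but stood at 0.09 under median-of-ratios scaling and 0.06 after quantile normalization, and the call was lost without 10-month replicate 1 or 2 or 20-month replicate 1 or 2 (adjusted p 0.0576 to 0.0751) and in the fit of those ages alone (adjusted p = 0.0538). At 10 against 2 months it missed the threshold (0.15, adjusted p = 0.0523) and passed it without 20-month replicate 2 or 3 (adjusted p = 0.035 and 0.019), with a pseudocount of 5 (adjusted p = 0.049) and in the fit of those ages alone (adjusted p = 0.0142). Vhl, the part of the ubiquitin ligase that binds hydroxylated HIF alpha, had 20.1, 21.8 and 22.4 FPKM at 2 months, 18.9, 18.7 and 17.3 at 10 months and 16.8, 16.7 and 17.0 at 20 months. It stepped down, with −0.22 ± 0.05 at 10 against 2 months (adjusted p = 0.0113) and −0.33 ± 0.05 at 20 against 2 months (adjusted p = 0.000331), the 20-month change not called under median-of-ratios scaling (−0.11, adjusted p = 0.0757) but called after quantile normalization (−0.16, adjusted p = 0.023). At 20 against 10 months it was not called as deposited (−0.11, adjusted p = 0.0735), was called lower without 10-month replicate 3 (−0.15, adjusted p = 0.0367) and was called higher under median-of-ratios scaling (0.14, adjusted p = 0.0455).

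Of the 5 HIF target genes 2 fell at 10 against 2 months (11.4% of all genes). At 20 against 2 months 3 fell and 2 rose (49.6% and 18.6% of all genes). Under median-of-ratios scaling the falls were not called and 2 rose (31.5% of all genes fell and 30.9% rose). At 20 against 10 months 2 fell and 1 rose (53.3% and 11.4%), and under that scaling none fell and 4 rose (26.0% and 26.5%). After quantile normalization Bnip3 and Ndrg1 were called lower and Bnip3l higher in that comparison. Vegfa, the vascular endothelial growth factor, had 459, 471 and 476 FPKM at 2 months, 470, 462 and 454 at 10 months and 504, 549 and 629 at 20 months. The younger ages overlapped and the 20-month libraries were all higher and more spread. Vegfa rose by 19.7% at 20 against 2 months (log2 change 0.25 ± 0.068, limma adjusted p = 0.0089, and 0.48 under median-of-ratios scaling) and by 21.3% at 20 against 10 months (0.27 ± 0.068, adjusted p = 0.00657, and 0.54 after that scaling). After quantile normalization it was 0.12 and 0.15 and not called in either (adjusted p = 0.146 and 0.0938).

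Bnip3 and Bnip3l encode receptors that mark mitochondria for removal. Bnip3 had 728, 788 and 735 FPKM at 2 months, 628, 628 and 640 at 10 months and 695, 662 and 654 at 20 months. The 10-month libraries were lowest and the 2-month libraries highest. It fell by 15.8% at 10 against 2 months (log2 change −0.25 ± 0.038, limma adjusted p = 0.00157), while its fall at 20 against 2 months (−0.16) became 0.07 under median-of-ratios scaling. After quantile normalization that fall was −0.47 and was called (adjusted p = 2.45e-06). Bnip3l had 142, 146 and 142 FPKM at 2 months, 155, 154 and 149 at 10 months and 152, 163 and 156 at 20 months. Both older ages lay above 2 months, and Bnip3l rose at 20 against 2 months (0.13 ± 0.035, adjusted p = 0.00865, and 0.36 under median-of-ratios scaling).

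Ndrg1, a stress-response gene induced by hypoxia, had 567, 569 and 573 FPKM at 2 months, 527, 528 and 543 at 10 months and 506, 496 and 491 at 20 months. It stepped down in narrow, separate ranges. Its fall at 10 against 2 months (log2 change −0.10 ± 0.026, limma adjusted p = 0.0226) was lost without any 2-month replicate or 10-month replicate 1 or 2 (adjusted p 0.0637 to 0.0865), and its fall at 20 against 2 months (−0.19) stood at 0.03 under median-of-ratios scaling. After quantile normalization the latter was −0.39 and was called (adjusted p = 2.4e-06). Ankrd37, a small ankyrin repeat gene and HIF target, had 16.3, 17.9 and 19.4 FPKM at 2 months, 17.8, 20.2 and 18.2 at 10 months and 12, 12.2 and 16.7 at 20 months. The 20-month libraries were mostly lower, with replicate 3 reaching the 2-month range. Ankrd37 fell at 20 against 2 months (−0.37 ± 0.117, adjusted p = 0.0181), a call lost without 2-month replicate 3 or 20-month replicate 1 or 2 (adjusted p 0.0621 to 0.0653) and under median-of-ratios scaling (−0.16, adjusted p = 0.269) and after quantile normalization (−0.19, adjusted p = 0.184).

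Ratios of related genes within a library are not altered by multiplying that library by 1 factor, as median-of-ratios scaling does, but can be altered by quantile normalization. After that normalization the log2 changes at 20 against 2 months were, for example, −0.75 for Slc2a1 and −1.27 for Slc2a3, which lie closer together than −0.47 and −1.44 as deposited. From values as deposited, 11 pairs were compared between ages, 33 comparisons in all. With 3 libraries against 3 the exact two-sided permutation test cannot go below 0.1. This floor was reached in 27 of the 33 and came to 0.122 after Benjamini-Hochberg adjustment over the 33. It means only that every ratio at 1 age lay above every ratio at the other. How often other pairs of genes reach the floor was not computed. The count of 27 therefore does not set these pairs apart, which were chosen with earlier results known. The ratio of Ldha to Ldhb FPKM was 10.7, 10.3 and 10.7 at 2 months, 6.43, 6.61 and 6.43 at 10 months and 6.39, 7.27 and 6.85 at 20 months. It was lower in every older library. The ratio of Slc2a1 to Slc2a3 was 28.6 ± 0.392, 24.7 ± 0.984 and 57.9 ± 6.17 at 2, 10 and 20 months (SD, n = 3 each), and that of Hk2 to Hk1 was 2.95 ± 0.0334, 2.78 ± 0.0877 and 1.70 ± 0.145. Both moved mostly between 10 and 20 months. Pfkp to Pfkl stood at 0.668 ± 0.00954, 0.483 ± 0.0198 and 0.394 ± 0.0402, and Epas1 to Hif1a at 0.779 ± 0.0174, 0.727 ± 0.00476 and 0.582 ± 0.0658 at 2, 10 and 20 months. Egln3 to Egln1 was 0.646 ± 0.0236 at 2 months and 0.785 ± 0.0208 and 0.791 ± 0.0347 at 10 and 20 months. Slc16a3 to Slc16a1 was 17.6 ± 1.49, 8.87 ± 1.01 and 9.33 ± 3.13, and Bnip3 to Bnip3l 5.24 ± 0.135, 4.15 ± 0.139 and 4.28 ± 0.277. A ratio shows unequal change and not which gene changed.

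**Figure D4:**
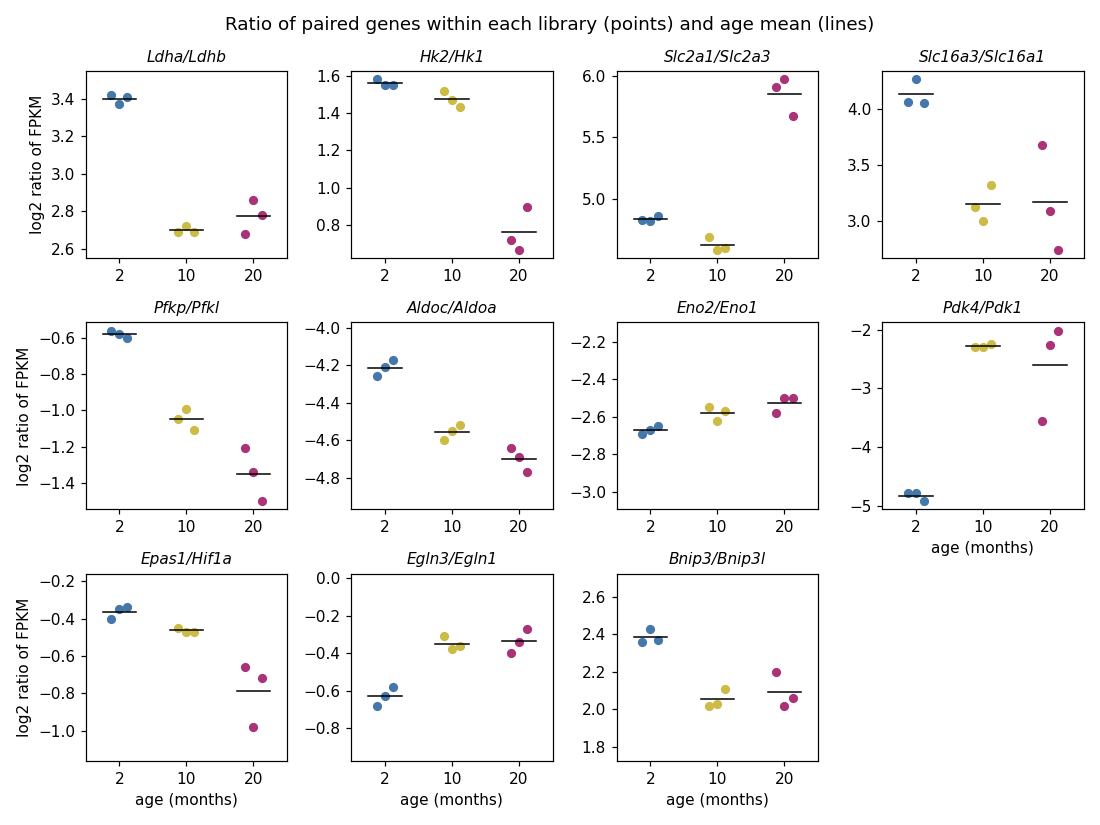
Log2 ratio of FPKM of 11 gene pairs within each library (y axis, not from 0) against age in months (x axis), with 1 point per library, 3 per age, and a line at each age mean. Ldha/Ldhb, Bnip3/Bnip3l and Slc16a3/Slc16a1 are lower and Egln3/Egln1 and Pdk4/Pdk1 higher at 10 and 20 months than at 2 months, while Hk2/Hk1 and Slc2a1/Slc2a3 shift mainly at 20 months.

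Isoform use was tested with limma for 11 isoforms of 5 members (Aldoa, Pdk3, Pfkfb3, Pkm and Vegfa) among 2765 isoforms. None of the 11 was called in any comparison, where 0.253% of all isoforms were called at 10 against 2 months, 11.1% at 20 against 2 months and 7.52% at 20 against 10 months. At an unadjusted p under 0.05 the members' counts were 0, 3 and 2 in those comparisons, and the share of all isoforms at that threshold was not computed. Shares of 1 gene are tied to each other. The 3 include both Pkm isoforms, whose changes mirror each other, and the 2 are both of Vegfa. The Pkm gene is known for alternative splicing into a muscle and an embryonic form, and the deposited table does not say which its rows are. Its isoform with 11 exons in the table held 72.5, 72.8 and 72.5% of the gene's FPKM at 2 months, 74.6, 75.1 and 75.5% at 10 months and 76.5, 77.4 and 76.9% at 20 months. The shares of the 3 ages did not overlap, and the log2 ratio to the other isoform differed by 0.33 ± 0.106 at 20 against 2 months, which was not called (adjusted p = 0.0959). For Vegfa the isoform with 8 exons had shares of 39.7, 39.9 and 40.7% at 2 months, 42.7, 38.1 and 44.8% at 10 months and 34.3, 31.8 and 30.7% at 20 months. All 20-month shares were lowest (log2 ratio difference −0.60 ± 0.147 at 20 against 10 months, not called, adjusted p = 0.0566). The isoform with 7 exons held 33.2 ± 1.53%, 30.3 ± 2.51% and 38 ± 1.37% at 2, 10 and 20 months (SD, n = 3 each).

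**Figure D5:**
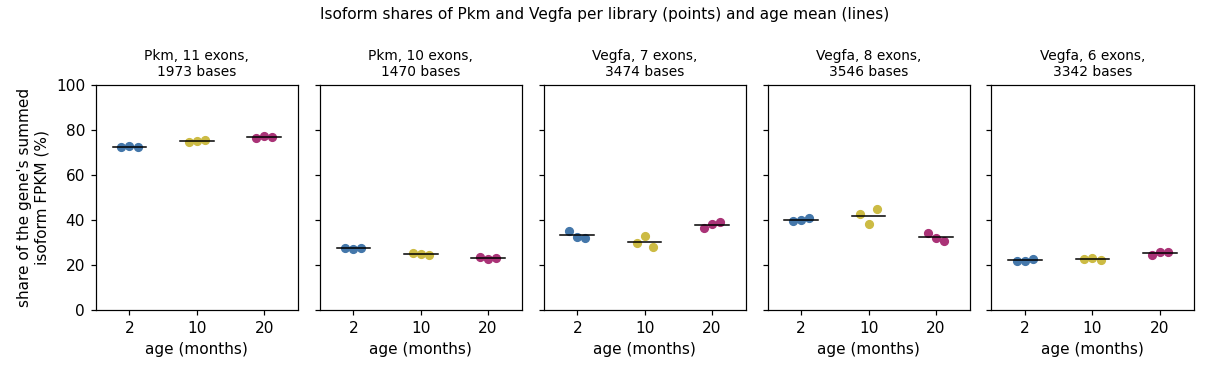
Share of each gene's summed isoform FPKM in percent (y axis, 0 to 100) against age in months (x axis) for both tested Pkm isoforms and 3 Vegfa isoforms, with 1 point per library, 3 per age, and a line at each age mean. The Pkm isoform with 11 exons holds 72.5 to 77.4% in all libraries, and the Vegfa isoform with 8 exons is lowest at 20 months.

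Other genes around these steps were followed as lists. Their counts at 20 against 2 months stand against 49.6% of all genes that fell and 18.6% that rose as deposited, and 31.5% and 30.9% under median-of-ratios scaling. The deposited shares that fell in the lists for pyruvate entry, the HIF machinery and other hypoxia genes lay near the first of these values. Among other glycolytic enzymes and isoenzymes 12 of 25 listed genes were tested, and 5 fell and 2 rose at 20 against 2 months (5 and 3 under median-of-ratios scaling), with a median log2 change of −0.16 (−0.20 over all genes tested). Adpgk, an ADP-dependent glucokinase, averaged 8 ± 0.199 FPKM at 20 months, against 14.1 ± 0.617 FPKM at 2 months (log2 change −0.74 ± 0.044, limma adjusted p = 1.1e-06), and the insulin-responsive glucose transporter gene Slc2a4 averaged 0.907 ± 0.171 FPKM, against 2.29 ± 0.166 FPKM (adjusted p = 8.13e-05). The phosphatase gene Minpp1 (−0.57) and the galactose mutarotase gene Galm (−0.69) also fell. Under median-of-ratios scaling the log2 changes of Adpgk, Slc2a4, Minpp1 and Galm were −0.54, −0.67, −0.35 and −0.48. Of 14 tested genes of pyruvate entry to the mitochondria 7 fell and 3 rose at 20 against 2 months (6 and 5 under that scaling), with a median of −0.26. Bsg, the chaperone that brings lactate transporters to the membrane, averaged 935 ± 57.5 FPKM at 20 months, against 1398 ± 25.9 FPKM at 2 months (−0.58 ± 0.044, adjusted p = 4.26e-06). Pdha1, a pyruvate dehydrogenase subunit, rose (0.19, adjusted p = 0.00146), while Dlat (−0.62), another subunit, and Pc (−0.52), pyruvate carboxylase, fell. After that scaling Bsg, Pdha1, Dlat and Pc stood at −0.35, 0.42, −0.41 and −0.30.

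Of 20 tested genes of the pentose phosphate pathway and glycogen 13 fell at 20 against 2 months (49.6% of all genes), with a median of −0.37 as deposited, against −0.20 over all genes. Under median-of-ratios scaling 10 fell and 2 rose (31.5% and 30.9% of all genes). Tkt, transketolase, averaged 58.5 ± 6.22 FPKM at 20 months, against 102 ± 1.36 FPKM at 2 months (log2 change −0.79 ± 0.066, limma adjusted p = 8.11e-06), and Pgm1, phosphoglucomutase (−0.70), Pygl, glycogen phosphorylase (−0.36), and Phkg2, a phosphorylase kinase subunit (−0.40), fell too. Under median-of-ratios scaling Tkt, Pgm1, Pygl and Phkg2 stood at −0.57, −0.48, −0.13 and −0.18. Of 17 tested genes of the HIF machinery 8 fell and 5 rose (7 and 8 under median-of-ratios scaling), with a median of −0.17. Those that fell included the coactivators Crebbp (−0.81) and Ep300 (−0.70) and Os9 (−0.83), while Rack1, a ribosomal scaffold protein that also binds HIF-1 alpha, rose and averaged 366 ± 8.39 FPKM at 20 months, against 203 ± 2.76 FPKM at 2 months (0.85 ± 0.028, adjusted p = 6.48e-08). After that scaling Crebbp, Ep300, Os9 and Rack1 stood at −0.61, −0.50, −0.61 and 1.07. Of 30 other hypoxia response genes 17 fell and 7 rose (14 and 10), with a median of −0.23. Wsb1, a ubiquitin ligase adaptor, rose to 145 ± 14.6 FPKM at 20 months, against 52.6 ± 0.573 FPKM at 2 months (1.44 ± 0.062, adjusted p = 2.16e-07), and the calcium-regulating hormone gene Stc2 averaged 16.8 ± 3.02 FPKM, against 53.1 ± 0.885 FPKM (−1.61 ± 0.106, adjusted p = 1.93e-06). Ak4, an adenylate kinase, and Bhlhe40, a transcriptional repressor, fell by similar amounts (−0.82 and −0.81). After scaling Wsb1, Stc2, Ak4 and Bhlhe40 stood at 1.67, −1.40, −0.60 and −0.58.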

How the data were processed

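Input RNA libraries of rat NP tissue (9, with 3 per age) were used, and groups come from the sample titles. The authors' gene table gives FPKM per gene, and the authors' isoform table gives FPKM and coverage (mean reads per base) per transcript, per the file headers. Tools listed without a role in the submitters' processing notes are StringTie 1.3.4d, HISAT2 2.0.4, cutadapt 1.9, edgeR and DESeq2. The genome build was not given in the sources used here. FPKM are not counts, and no count test was run. Depth was read from the ratio of coverage to FPKM, which is constant within a library. Fragments of near-identical genes can be split between rows by the quantification, and FPKM are shares, so a rise of abundant genes lowers the rest.

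Genes whose FPKM reached 1 in 3 or more libraries were tested with limma 3.58.1 (R 4.3.3, empirical Bayes with trend) on log2(FPKM + 1), in 1 fit of the 3 ages, with Benjamini-Hochberg adjustment over 11708 genes. All adjusted p-values are from limma. Isoform shares were tested with limma on the log2 ratio to the gene's other isoforms, with 0.5 added, for genes with summed FPKM of at least 5 and isoform shares of 10 to 90%. Ratios of 2 genes were tested with SciPy 1.17.1. Scripts were tested on simulated data.

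The members, lists, pairs and tests were chosen with earlier results of these data known. The rule for named genes prints FPKM in every library for members called in at least 1 comparison with a mean of at least 5 FPKM at their highest age, and ranges or means for the others. Of each other pathway list it names up to 4 genes with the smallest adjusted p of the F test, and of each list of other cell types the highest gene. NP markers besides Ca3, the values of Pfkm per library and those of Hif3a are given in addition. Alternatives were pseudocounts of 0.1 and 5, no filter, median-of-ratios scaling, quantile normalization, a replicate block, a fit of the 2 ages compared and each library left out.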

Additional observations from a re-analysis of the deposited data

How the results depend on the processing

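Counts of called members kept within 1.5 times their value under the alternative settings, with these exceptions. After median-of-ratios scaling 14 members fell and 10 rose at 20 against 2 months, against 25 and 6 as deposited, and 8 fell and 15 rose at 20 against 10 months, against 20 and 3. The count that rose at 10 against 2 months, 3 in the fit of all ages, was 8 in the fit of those ages alone and 2 to 5 with a library left out. Leaving out a library gave 13 to 22 falls at 10 against 2 months, 22 to 25 falls and 6 rises at 20 against 2 months and 19 to 21 falls and 2 to 4 rises at 20 against 10 months. The cause was not tested.

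Among single members, turns of direction in which the deposited or the alternative value was called were in comparisons with 20 months. After median-of-ratios scaling the log2 change at 20 against 2 months was 0.21 for Pfkl, 0.12 for Aldoa, 0.04 for Pgam1, 0.06 for Eno2, 0.11 for Pdk1, 0.09 for Egln1, 0.21 for Egln2, 0.07 for Bnip3 and 0.03 for Ndrg1. At 20 against 10 months it was 0.10 for Slc2a1, 0.07 for Hk1, 0.23 for Pfkl, 0.24 for Aldoc, 0.23 for Pgam1, 0.04 for Eno1, 0.09 for Eno2, 0.22 for Ldhb, 0.09 for Egln2, 0.14 for Vhl and 0.17 for Ndrg1, and among other genes 0.16 for Pdha1 and 0.15 for Pygl. After quantile normalization it was 0.15 for Pfkl, −0.01 for Pgk1, 0.04 for Pdk1 and 0.18 for Egln2 at 20 against 2 months, and −0.03 for Aldoa, −0.18 for Ldha, 0.06 for Egln2 and −0.12 for Bnip3 at 20 against 10 months. Values called in neither also turned. These were −0.01 for Pfkl and −0.03 for Pgk1 and Eno2 at 10 against 2 months and 0.03 for Slc16a1 and 0.15 for Pfkfb3 at 20 against 2 months under median-of-ratios scaling. After quantile normalization they were −0.02 for Pgk1 at 10 against 2 months, 0.03 for Slc16a1 and 0.01 for Pfkfb3 at 20 against 2 months, and 0.09 for Pfkl, 0.13 for Aldoc, 0.04 for Ldhb and 0.08 for Vhl at 20 against 10 months.

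Replicate numbers did not pair the libraries, since same-numbered libraries of 2 ages correlated with r of −0.04 to 0.049 in their deviations from the age means. With the replicate block 16 members fell and 3 rose at 10 against 2 months, 24 and 6 at 20 against 2 months and 20 and 3 at 20 against 10 months, and the F test called 33. Calls lost with the block were those of Hif1a and Ndrg1, and of the other named genes Dlat and Pc, at 10 against 2 months and of Aldoa at 20 against 2 months (adjusted p 0.0509 to 0.0714). Depth limits the low members most, with 7.71 reads per base for Pdk4 and 8.07 for Slc16a1 in their least covered libraries.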
